A study of Mus musculus with 6 samples.

Results

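Complement is a cascade of plasma and cell surface proteins, and 9 genes of it, 7 components and 2 receptors, are described here in mouse white adipose tissue with and without ginsenoside Rb1. The 9 are C1qa, C1qb, C1qc, C2, C3, C4b, Cfb, C3ar1 and C5ar1, chosen by name, out of 22040 genes in the expression table, and all 9 had enough counts to be tested. RNA sequencing was done on 6 samples. The 3 controls (CTR) came from mice that received saline by intraperitoneal injection, and the other 3 from mice that received Rb1, a saponin of ginseng, by the same route, 14 mg/kg each day. The title of the study concerns myostatin and the effect of Rb1 on obesity, so the comparison asks which transcripts of fat differ after Rb1. The sources used here give no strain, age, sex, diet, fat depot or length of treatment. Nor do they state that each library of a group is a separate mouse, so every p-value rests on the scatter of the libraries as deposited, part of which may be technical.

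In the classical pathway, C1q binds antibody or damaged surfaces and the proteases it carries cut C4 and C2, which together form an enzyme that cleaves C3. In the alternative pathway, factor B joins C3b and is cut by factor D, the adipocyte product adipsin, to give a second C3-cleaving enzyme. Both routes release the small peptides C3a and C5a, which act on the receptors encoded by C3ar1 and C5ar1. Macrophages are a main source of C1q in tissues and carry both receptors, whereas C3, C4 and factor B are made by stromal cells and adipocytes as well as by liver.

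Total counts ran from 15440339 to 24501446 per library, and the members had between 473 and 37268 counts in each library. The fat markers were present in every library: the 8 adipocyte markers together held 17800 to 23700 CPM (the count scaled to a common library total). Control replicate 2 carried skeletal muscle transcripts, since 9 muscle genes took 2.66% of its counts and between 0.00352% and 0.0368% of the counts in the other 5 libraries. Because of this, results are also given without that library where it matters.

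Of the 9 members, C3ar1 had the lowest level with Rb1 relative to control. The C1q chains and Cfb were lower by less, C2 was higher, and C3, C4b and C5ar1 were close to equal in the means. The 95% intervals of C1qa, C1qc and Cfb included 0. In edgeR's quasi-likelihood test with Benjamini-Hochberg adjustment over 14093 genes, 0 of 9 members passed an adjusted p of 0.05, where 0.0071% of all genes did. At an unadjusted p under 0.05, C3ar1 and C1qb were lower and C2 was higher, against 7.54% of all genes lower and 4.01% higher at that level. DESeq2, another count test, called C3ar1 alone among the members, lower, with and without control replicate 2. DESeq2 called 2.18% of all genes lower and 0.589% higher. On simulated counts with known changes, a larger share of the DESeq2 calls than of the edgeR calls was false at this threshold, so a call by DESeq2 alone is weaker evidence. In the same simulation edgeR recovered 29% of the 2-fold changes and DESeq2 61%. A gene that edgeR did not call is therefore not shown to be unchanged. For C1qb, C2 and C3ar1 the 95% interval included a 2-fold change (0.49 to 0.951, 1.05 to 2.82 and 0.406 to 0.655 times control). For the other members it did not, though that of C1qa reached down to 0.51. On CPM scaled by TMM (edgeR's correction for library composition), the groups were fully apart for C3ar1 and C1qb, both lower, and for C2, higher, while 9.74% of all genes were lower and 7.73% higher in this way. The median log2 fold change of the members was -0.32, with 7 of 9 negative, and over all tested genes it was 0.01, with 6858 of 14093 negative. Without control replicate 2 the members' median was -0.18, and without Rb1 replicate 1 it was -0.12.

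**Figure D1:**
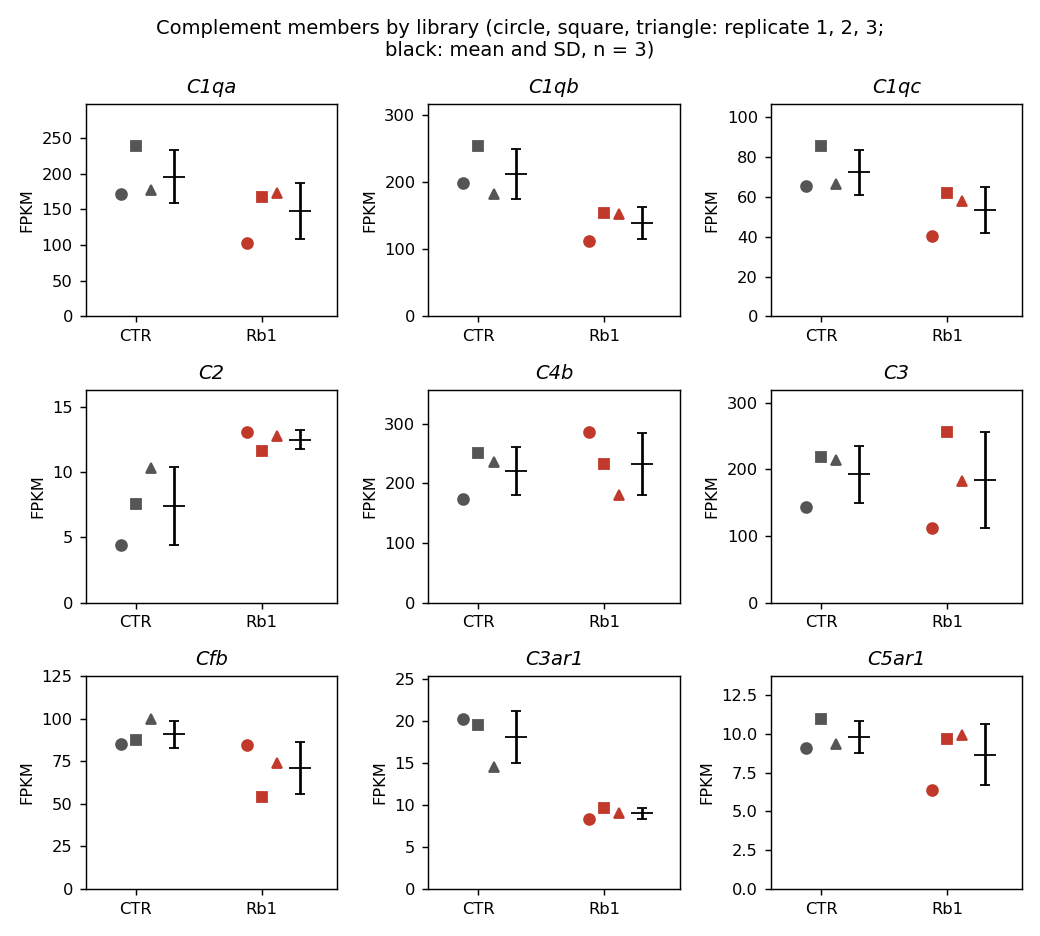
FPKM of each member (vertical axis, from 0) in the 3 control and 3 Rb1 libraries, with a marker shape per replicate and the mean and SD (n = 3) in black. The C3ar1 points of the Rb1 group, 8.33 to 9.61 FPKM, lie below all control points, 14.5 to 20.2 FPKM, while the C3 and C4b points of the groups overlap.

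C1qa, C1qb and C1qc encode the 3 chains of C1q and lie side by side on the minus strand of chromosome 4 (GRCm38), C1qb from 136880129 to 136886187, C1qc from 136889804 to 136893065 and C1qa from 136895917 to 136898803. None shares exon positions with another annotated gene. The stretches just upstream of C1qb and C1qc are shown because these neighbours encode chains of the same protein. They come from RefSeq (GRCm38.p6), minus strand, 5′ to 3′, end at the annotated start farthest upstream, and span chr4:136886201-136886350 and chr4:136893066-136893164. Capitals mark GAGGAA or its reverse complement, the core that the myeloid factor PU.1 binds.
C1qb: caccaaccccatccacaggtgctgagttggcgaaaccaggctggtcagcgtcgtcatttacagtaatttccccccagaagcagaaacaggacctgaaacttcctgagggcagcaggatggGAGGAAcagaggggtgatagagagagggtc
C1qc: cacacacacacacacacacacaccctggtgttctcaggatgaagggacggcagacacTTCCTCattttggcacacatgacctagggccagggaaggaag

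The PU.1 core, searched on both strands, starts 30 bases before the RefSeq start of C1qb, and its reverse complement starts 42 bases before that of C1qc. For C1qb the RefSeq start lies upstream of the gene start in the coordinates above, so its distance depends on the annotation. This 6-letter core was present in 14.5% of all 32851 RefSeq promoter windows of 150 bases and in 9.74% of those of 99 bases, so a match is common. For the factors C/EBP the letters TTGCNNAA were searched on both strands as well. For interferon response factors the half-site GAAANNGAA was searched likewise. The general promoter element, the TATA box, was searched as TATAAA. None of the 3 had a match in these windows, and no match says only that the letters are not there. In that order they occurred in 5.46%, 3.95% and 7.57% of all windows of 150 bases, and in 3.37%, 2.5% and 5.52% of those of 99 bases.

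C1qb stood at 198.6, 253.9 and 182.8 FPKM (the count scaled to gene length and library total) in control replicates 1, 2 and 3. In Rb1 replicates 1, 2 and 3 it stood at 112.3, 153.9 and 152.3 FPKM. All Rb1 values lay below all control values, with means of 211.8 ± 37.3 and 139.5 ± 23.6 (SD, n = 3 each). On the log2 scale Rb1 minus control was -0.55 with an SE of 0.20 (95% interval -1.03 to -0.07, edgeR adjusted p = 0.378, DESeq2 adjusted p = 0.188). It was -0.39 without control replicate 2 and -0.38 without Rb1 replicate 1. In whole tissue, fewer cells of a type and less RNA per cell cannot be told apart.

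C1qa had 172.2, 238.7 and 177.3 FPKM in the controls and 102.6, 167.4 and 172.6 with Rb1. Here the groups overlapped, because Rb1 replicate 3 was level with control replicate 1, and the low Rb1 mean came mostly from Rb1 replicate 1. The log2 fold change was -0.36 ± 0.26 (SE, interval -0.97 to 0.26, edgeR adjusted p = 0.66), and it was -0.12 without Rb1 replicate 1 and -0.18 without control replicate 2. C1qc, at 65.3, 85.4 and 66.4 FPKM in the controls and 40.1, 61.9 and 57.8 with Rb1, had separate groups in FPKM, but they overlapped on TMM-scaled CPM, where Rb1 replicate 2 passed control replicate 1. Its log2 fold change was -0.39 ± 0.22 (SE, interval -0.91 to 0.13, edgeR adjusted p = 0.561). It was -0.19 without Rb1 replicate 1 and -0.25 without control replicate 2.

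The proportions of the 3 chains overlapped between the groups. C1qa to C1qb varied most in relative terms, from 0.867 to 0.97 in the controls and from 0.914 to 1.13 with Rb1. The ratio of C1qa to C1qc in FPKM was between 2.56 and 2.99, with means of 2.70 ± 0.0823 for saline and 2.75 ± 0.219 for Rb1 (SD, n = 3 each). C1qb to C1qc was 2.92 ± 0.150 in controls and 2.64 ± 0.155 with Rb1, and the groups overlapped. All 3 chains were highest in control replicate 2 and lowest in Rb1 replicate 1, and the distance between these 2 libraries was 1.14 to 1.27 on the log2 CPM scale.

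C2 and C4b encode the proteins that join to form the classical C3-cleaving enzyme. C2 had 4.38, 7.53 and 10.3 FPKM in the controls and 13.1, 11.7 and 12.8 with Rb1. Every Rb1 value exceeded every control value, and the controls were spread more widely (7.42 ± 2.98 against 12.5 ± 0.738, SD, n = 3 each). Rb1 minus control was 0.78 on the log2 scale with an SE of 0.30 (interval 0.07 to 1.49, edgeR adjusted p = 0.404, DESeq2 adjusted p = 0.191). It was 0.50 without control replicate 1, the lowest library, and 1.12 without control replicate 3.

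C2 lies on chromosome 17 from 34862604 to 34898265, minus strand, directly next to Cfb, which spans 34856374 to 34862518 on the same strand. The annotated readthrough gene Gm20547 is made wholly of their exons: of its 3902 exon bases, 1656 are shared with C2 and 2246 with Cfb. The sources used here do not state how the counting assigned such shared reads, so the counts of the 3 genes are uncertain. Gm20547 was itself higher with Rb1, at 47.7, 59.1 and 76.7 CPM in the controls and 105, 176 and 94.2 CPM with Rb1 (log2 fold change 1.07, SE 0.30, edgeR adjusted p = 0.277, DESeq2 adjusted p = 0.0222). Rb1 replicate 2, the library with most Gm20547, was also the one with least Cfb. Summed over C2, Gm20547 and Cfb, the locus gave 480, 521 and 615 CPM in the controls and 585, 502 and 523 CPM with Rb1, and the groups overlapped. Cfb supplied most of this sum, at 260 to 480 CPM per library, so the sum says little about C2 alone. C2 also shares 161 exon bases with Zbtb12 on the opposite strand. Zbtb12 had 3.50 to 7.17 CPM in all libraries, far below the 24.7 to 73.6 CPM of C2.

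C4b was among the most abundant members, at 174.7, 251.7 and 235.2 FPKM in the controls and 285.6, 232.4 and 181.1 with Rb1. The groups overlapped, although Rb1 replicate 1 lay above all controls and control replicate 1 below all Rb1 libraries, and the log2 fold change was 0.11 ± 0.21 (SE, interval -0.40 to 0.61, edgeR adjusted p = 0.895), so changes larger than 1.53-fold upward or to below 0.76-fold lay outside the interval. The direction depended on the library: it was -0.06 without control replicate 1, -0.01 without Rb1 replicate 1 and 0.24 without Rb1 replicate 3. C4b (chromosome 17, 34728380 to 34743882) has a near-identical copy, C4a, which was not analysed here, and reads that fit both make its level uncertain.

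C3, the protein on which all routes converge, varied more between libraries than between groups. It had 143.3, 219.0 and 214.5 FPKM in the controls and 111.2, 255.1 and 183.0 with Rb1. The highest and the lowest library were both Rb1 samples. The log2 fold change was -0.02 ± 0.35 (SE, edgeR adjusted p = 0.992), with an interval of -0.84 to 0.81, or from 0.557 to 1.75 times the control level. It was 0.27 without Rb1 replicate 1, 0.09 without control replicate 2 and -0.36 without Rb1 replicate 2. C3 lies on chromosome 17 from 57203970 to 57228136 and shares no exons.

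The same library, Rb1 replicate 1, was also lowest for the sum of the 8 fibroblast and progenitor markers. This sum was 3230 CPM there, 7170 in Rb1 replicate 2, 6130 in Rb1 replicate 3 and 4710 to 5940 in the controls. Col3a1 was a large part of it, at 1204 CPM in Rb1 replicate 1 and 3284 in Rb1 replicate 2. Ly6a and Pi16 were not lowest in Rb1 replicate 1. Of the 8 markers, 0 passed in edgeR, and Pdgfra, Dcn and the others were detected in every library. Their part in the C3 values was not tested.

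Cfb encodes factor B of the alternative pathway. It stood at 85.0, 87.4 and 100.1 FPKM in the controls and 84.7, 54.3 and 74.3 with Rb1. Rb1 replicate 1 was level with control replicate 1, and Rb1 replicate 2 was the lowest. The log2 fold change was -0.32 ± 0.17 (SE, interval -0.73 to 0.09, edgeR adjusted p = 0.537), and it was -0.18 without Rb1 replicate 2. The shared exons with Gm20547 apply here too, since 2246 of the 2825 exon bases of Cfb are shared.

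C3ar1, the receptor for C3a on macrophages and other myeloid cells, had the smallest p of the 9. It stood at 20.2, 19.5 and 14.5 FPKM in control replicates 1, 2 and 3 and at 8.33, 9.61 and 9.05 FPKM in Rb1 replicates 1, 2 and 3. The groups were well apart, and the Rb1 values were close together (18.1 ± 3.11 against 8.998 ± 0.646, SD, n = 3 each). Its log2 fold change was -0.96 with an SE of 0.15 (interval -1.30 to -0.61), a level in controls 1.94 times that with Rb1. By unadjusted p it was number 37 of 14093 genes, and its edgeR adjusted p was 0.128, so it did not pass. Over the other settings except DESeq2 the adjusted p was between 0.072 and 0.426. DESeq2 gave an adjusted p of 1.78e-05, and 0.00325 without control replicate 2. Leaving out any 1 library kept the log2 fold change between -1.08 and -0.86.

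C3ar1 lies on chromosome 6 from 122847138 to 122856161, minus strand, and shares exons with no other gene. Its upstream stretch, chr6:122856162-122856311 (RefSeq, GRCm38.p6, minus strand, 5′ to 3′), is given for comparison with those of the C1q genes. None of the 4 letter patterns searched there has a match in it, so no base is in capitals.
C3ar1: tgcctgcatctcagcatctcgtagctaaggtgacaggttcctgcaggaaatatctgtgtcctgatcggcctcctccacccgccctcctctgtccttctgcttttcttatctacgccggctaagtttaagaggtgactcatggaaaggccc

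C5ar1, the main receptor for C5a, had 9.07, 10.99 and 9.37 FPKM in the controls and 6.41, 9.68 and 9.92 with Rb1. The groups overlapped, and of the Rb1 libraries replicate 1 alone lay below all controls. Its log2 fold change was -0.13 ± 0.21 (SE, interval -0.63 to 0.38, edgeR adjusted p = 0.871) and it was 0.08 without Rb1 replicate 1. The ratio of C3ar1 to C5ar1 in FPKM was 2.23, 1.77 and 1.55 in the controls and 1.30, 0.993 and 0.913 with Rb1, with no overlap. This pair was set side by side after the values were seen, and the difference was not tested. C5ar1 lies on chromosome 7 from 16246743 to 16259540, minus strand.

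Set in order of FPKM, which is per length, the control levels were C4b 220.6, C1qb 211.8, C1qa 196.1, C3 192.3, Cfb 90.8, C1qc 72.4, C3ar1 18.1, C5ar1 9.81 and C2 7.42. The leading 4 genes overlapped between libraries, as did Cfb with C1qc and C5ar1 with C2, while C3ar1 lay above C5ar1 in all 3 controls. With Rb1 the order was C4b 233.0, C3 183.1, C1qa 147.5, C1qb 139.5, Cfb 71.1, C1qc 53.3, C2 12.5, C3ar1 8.998 and C5ar1 8.67. Here C2 lay above C3ar1 in all 3 libraries, and C3ar1 and C5ar1 overlapped.

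**Figure D2:**
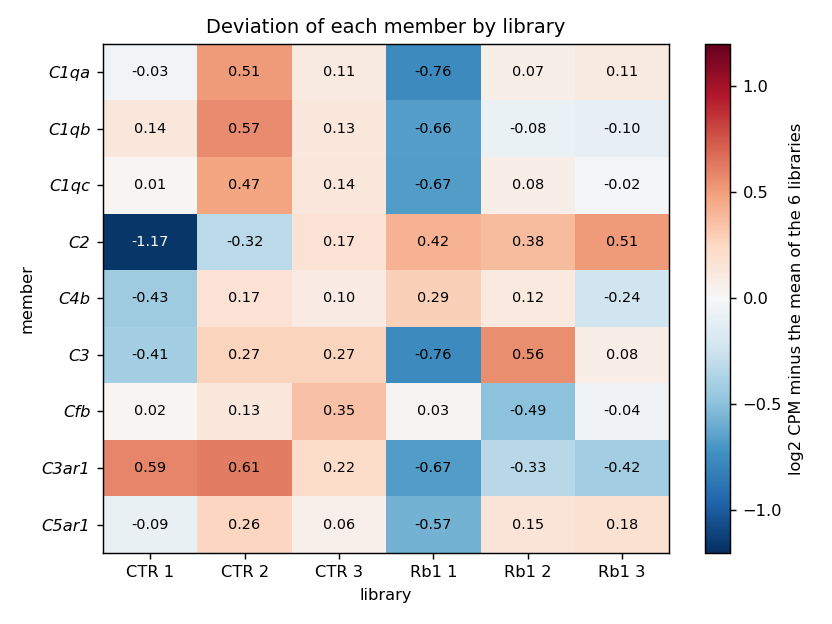
Log2 CPM of each member (rows) in each library (columns) minus the member's mean over the 6 libraries. C1qa, C1qb, C1qc, C3ar1 and C5ar1 are lowest in Rb1 replicate 1 (-0.57 to -0.76) and highest in control replicate 2, whereas C2 is lowest in control replicate 1 (-1.17).

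Markers of macrophages, the cells that make most C1q in many tissues, were mostly lower with Rb1, as C3ar1 and the means of the C1q chains were. Of 12 markers 10 had a negative log2 fold change and 8 had separate groups, with a median log2 fold change of -0.63 (-0.60 without control replicate 2). Their summed level was 2500 to 2860 CPM in the controls and 1560 to 2090 CPM with Rb1, and no marker was at 0. edgeR called 0 of them, 8 had an unadjusted p under 0.05, all lower, and DESeq2 called 6 lower. Over all genes, 9.74% had separate groups on the lower side, 7.54% were lower at that unadjusted p and 2.18% were called lower by DESeq2. Without control replicate 2, Adgre1 (DESeq2 adjusted p = 0.35) and Fcgr1 (DESeq2 adjusted p = 0.192) no longer passed. The lowest log2 fold changes were those of Trem2 (-1.42), Fcgr1 (-1.16), Cd68 (-0.91), Gpnmb (-0.88) and Adgre1, which encodes F4/80 (-0.86, and -0.65 without control replicate 2). Nearer 0 were Mertk, at 0.16, and the resident macrophage genes Mrc1, at -0.18, and Cd163, at 0.23. Mrc1 was at 0.10 without Rb1 replicate 1, and Cd163 at -0.08 without Rb1 replicate 2.

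Each member was therefore also expressed relative to the mean log2 CPM of the 12 markers, which was 0.60 lower with Rb1. An exact two-sided permutation test was made for each of the 9, with values adjusted over the 9. With 3 samples against 3 it cannot go below 0.1, and the smallest adjusted value was 0.225, so none could pass. Relative to the markers, C1qb differed by 0.04 (means of 0.86 ± 0.14 for saline and 0.90 ± 0.11 for Rb1, SD, n = 3 each, exact p = 0.8). C1qa differed by 0.21 and C1qc by 0.19 (exact p = 0.3 for both), both on the higher side and with overlapping groups. C3ar1 remained lower than the marker mean, at -0.53, -0.70 and -0.89 in the controls and -0.98, -1.10 and -1.09 with Rb1, a difference of -0.35 with no overlap (exact p = 0.1). The single markers ran from -1.42 (Trem2) to 0.23 (Cd163) in log2 fold change. C3ar1, at -0.96, lay among them, between Fcgr1 (-1.16) and Cd68 (-0.91), so it was not lower than every marker. C5ar1 was higher relative to the markers, at -1.31, -1.15 and -1.15 against -0.99, -0.72 and -0.59, a difference of 0.44 (exact p = 0.1). C2, by 1.48, and C4b, by 0.71, were also higher relative to the markers with no overlap (exact p = 0.1 for both), while C3, by 0.52, and Cfb, by 0.27, overlapped. The marker mean itself had separate groups, 6.89 to 7.08 in the controls and 6.08 to 6.54 with Rb1, which raised every ratio with Rb1. On their own values C4b (log2 fold change 0.11) and C5ar1 (-0.13) had overlapping groups, so their separation here came with the lower markers.

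**Figure D3:**
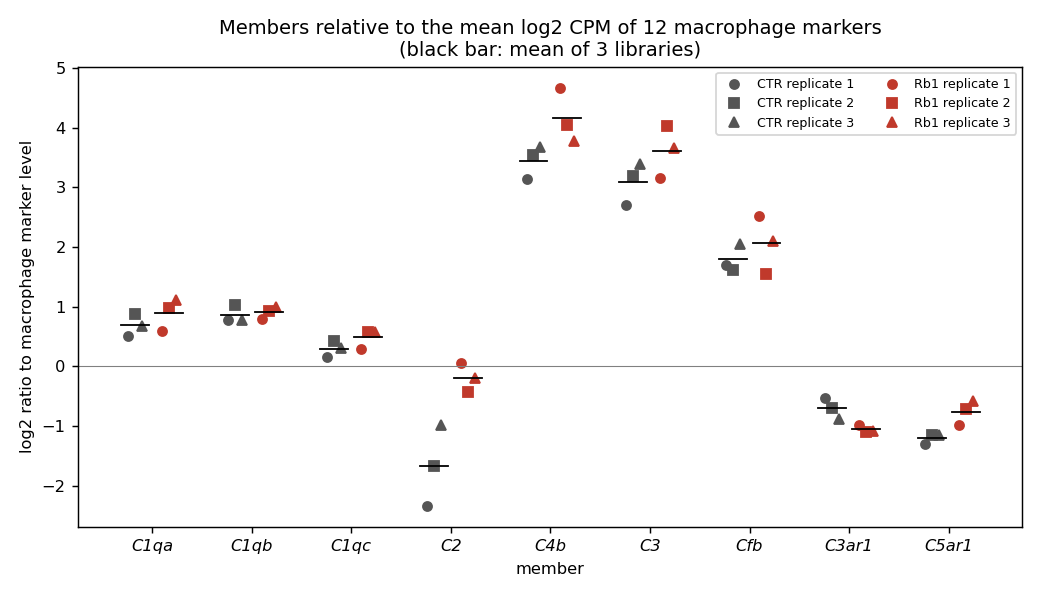
Log2 ratio of each member (horizontal axis) to the mean log2 CPM of 12 macrophage markers (vertical axis), for 3 control libraries in grey and 3 Rb1 libraries in red, with the mean as a black bar. The C1qb means differ by 0.04, the C3ar1 points are lower with Rb1, and those of C5ar1, C2 and C4b are higher.

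The wider cascade was counted on a list of 51 complement genes that includes the 9 members. Of these, 50 were measured and 40 tested, 22 with a negative and 18 with a positive log2 fold change, and their median was -0.06. edgeR called 0 of the 40, 6 had an unadjusted p under 0.05 on the lower side and 2 on the higher, and DESeq2 called 3 lower: C3ar1, Itgax and Itgb2. Those 3 remained the DESeq2 calls without control replicate 2. Over all genes the shares were 7.54% lower and 4.01% higher at that unadjusted p, and 2.18% called lower by DESeq2. The members made up 2 of the 6 lower, 1 of the 2 higher and 1 of the 3 DESeq2 calls.

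The receptors were the role with the largest share of negative log2 fold changes. Of 8 tested, 7 were negative with a median of -0.53, and 3 had separate groups, all lower, as had 9.74% of all genes. Itgax, the alpha chain of complement receptor 4, stood at 17.3, 13.2 and 11.7 FPKM in the controls and 5.06, 4.09 and 4.76 with Rb1 (log2 fold change -1.55, edgeR adjusted p = 0.0744). Itgb2, the beta chain shared by complement receptors 3 and 4, went from 32.3 ± 4.89 to 17.5 ± 1.64 FPKM (SD, n = 3 each, -0.84, edgeR adjusted p = 0.12). Itgam, the alpha chain of complement receptor 3, had overlapping groups (-0.83, edgeR adjusted p = 0.427), and its exons overlap those of Gm49368. C5ar2, the other C5a receptor, had -0.23 at a low level of 0.306 to 0.584 FPKM. Vsig4, the complement receptor of resident macrophages, had -0.19, and Cd93 had 0.05.

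Among initiators, 7 of 14 tested genes were negative and 7 positive, with a median of -0.05. C1ra and C1s1, which encode the proteases carried by C1q, had log2 fold changes of 0.17 (interval -0.44 to 0.78) and 0.32 (interval -0.23 to 0.86), with intervals that include 0. Without control replicate 1 these were -0.03 for C1ra and 0.15 for C1s1. C1ra and C1s1 have near copies, C1rb at 0.32 and C1s2 at 0.42, between which reads may have been split. The scavenger collectin Colec12 was lower in every Rb1 library than in every control (28.3 ± 3.30 against 22.1 ± 1.91 FPKM, SD, n = 3 each), with a log2 fold change of -0.32 (edgeR adjusted p = 0.402). The ficolin Fcna was at 0.73 with overlapping groups. Mbl2 and Fcnb had no counts in any library, which allows up to 3 counts in each.

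Cfd, the adipsin gene, was the most abundant complement transcript and was higher with Rb1. It stood at 611.6, 747.8 and 1246 FPKM in the controls and 1387, 1983 and 1561 with Rb1, with no overlap. Its log2 fold change was 0.96 with an SE of 0.31 (interval 0.21 to 1.70, edgeR adjusted p = 0.322, DESeq2 adjusted p = 0.055). It was 0.74 without control replicate 1 and 1.34 without control replicate 3. Without control replicate 2 it was 0.86, and the DESeq2 adjusted p was 0.328. Cfp, which encodes properdin, the stabiliser of the alternative enzyme, had 0.23 (edgeR adjusted p = 0.807).

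Terminal pathway and regulator genes were near 0 or too variable to place. C7 had a log2 fold change of 0.62 (interval -0.52 to 1.76), C6 of -0.75 (interval -1.80 to 0.31) and C8g of 0.07. Without control replicate 1 C6 was at -0.15 and C7 at 0.30. Hc, which encodes C5, was at 0.0246 to 0.544 FPKM, and C8a and C8b had no counts. The 10 tested regulators had a median of 0.07, with 4 negative. Serping1, the C1 inhibitor, was the most abundant of them at 260 ± 57.0 FPKM in the saline group and 239 ± 37.7 after Rb1 (SD, n = 3 each, log2 fold change -0.09). Clu, the clusterin gene, had 0.16, Cd55 -0.16 and Cd59a 0.09, all with intervals that include 0. Without control replicate 1 Clu was at -0.08, and without control replicate 3 Serping1 was at 0.12. Vtn, the vitronectin gene, had the smallest p of the regulators, at 0.26 (edgeR adjusted p = 0.521). Cd59b had 0.13, and Cd55b, a near copy of Cd55, had -1.18 with a wide interval (-3.28 to 0.93), its counts being 85, 120 and 102 in the controls and 72, 0 and 66 with Rb1.

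**Figure D4:**
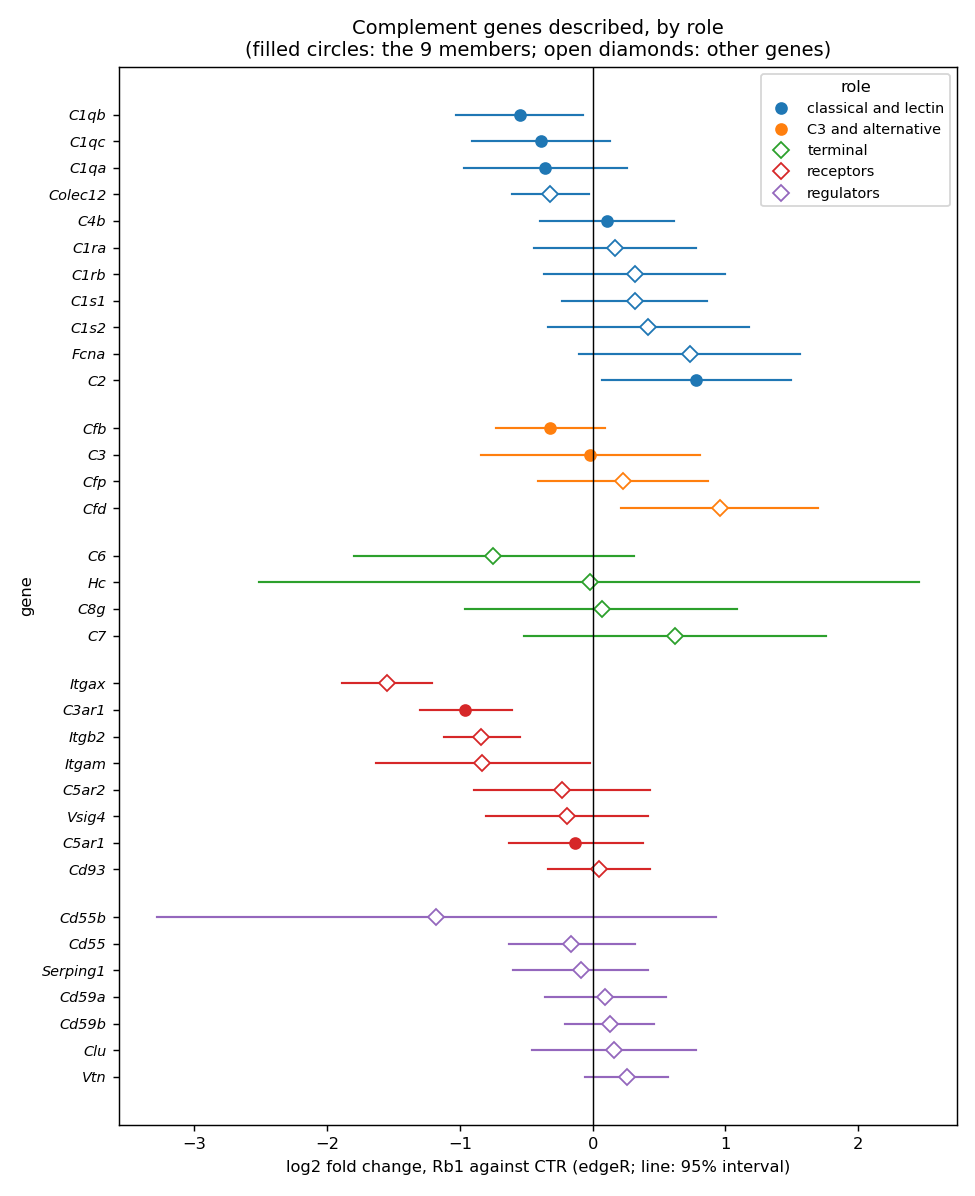
Log2 fold change, Rb1 against control (horizontal axis), with its 95% interval for the tested complement genes reported here, grouped by role. Itgax, C3ar1 and Itgb2 lie farthest below 0 among genes with narrow intervals, and Cfd and C2 lie above 0.

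For each member, the 3 genes with the most similar profile over the 6 libraries were found among 12928 others with a mean of at least 1 CPM, by the root mean square difference of log2 CPM centred on each gene's mean. For C1qa they were C1qc (0.0713), Nlrc4 and Ctsc, for C1qb they were Ehbp1l1 (0.0463), Lyz2 and C1qc, and for C1qc they were Syk (0.0682), Ptafr and C1qa. For C3ar1 they were E2f8 (0.0515), Pirb and Cybb. Those of C3 included Steap2 (0.091) and Mgl2 (0.091). For C4b they were N4bp1 (0.0461), Fam126b and Amot, and those of Cfb included Commd8 (0.0779) and Fbxw2 (0.0818). For C5ar1 they were Hspb8 (0.0642), Abca8a and Erc1, and for C2 they were Hcn4 (0.0903), Krt20 and Olfr1033. The values describe these libraries and were not tested.

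Other cell markers were compared because several members are also made elsewhere. The 5 hepatocyte markers summed to 7.15 to 13.9 CPM in the controls and 18.1 to 39.6 CPM with Rb1, most of it from Alb (log2 fold change 1.82, edgeR adjusted p = 0.254, DESeq2 adjusted p = 0.00425). Of the other liver genes, Serpina1a was lower (-0.50), Apoa1 had at most 6 counts and Ttr at most 3 in any library. C9, a liver-made component, had at most 2. Mesothelial markers summed to 1.62 to 5.44 CPM in all libraries, with Upk1b at 0. The 5 T cell markers summed to 7.24 to 22.5 CPM in controls and 4.66 to 13.8 CPM with Rb1, the 4 B cell markers to 1.88 to 3.71 and 1.55 to 4.8 CPM, and the 6 neutrophil markers to 8.18 to 12.9 and 6.86 to 15.9 CPM, with Ly6g at 0. The 5 endothelial markers summed to 1400 to 1600 CPM in controls. With Rb1 they summed to 2470 CPM in replicate 1, 1420 in replicate 2 and 1640 in replicate 3. The part of these cells in the members' values was not tested.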

How the data were processed

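Total RNA from white adipose tissue was sequenced, per the labels' protocols. CASAVA 1.8, TopHat2 2.0.6 and the build mm10 are listed, without roles, per the submitters' processing notes. The sources used here name no counting tool, annotation release or strand setting. Raw read counts and FPKM were deposited for each Ensembl gene and sample, per the file headers. Recomputation showed that the authors' FPKM equalled count over gene length and column total (13169 genes with at least 10 counts in every library, largest spread of the implied length 0.00984%).

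Counts were tested with edgeR 4.0.16 in R 4.3.3: TMM, its expression filter (minimum count 10, minimum total 15), no covariates, Benjamini-Hochberg over 14093 genes, threshold 0.05. Standard errors and 95% intervals came from the F statistic. DESeq2 1.42.0, limma-voom 3.58.1, other scalings, no filter, a replicate block and leaving out each library were alternatives, and scripts were tested on simulated data. Log2 CPM used a prior count of 2. Coordinates and exons came from GENCODE M21 (GRCm38). No pair of libraries agreed within sampling noise (chi-square per degree of freedom at least 31.69).

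The members, lists and comparisons were chosen with earlier results of these data known. Genes named beyond the members were those with the smallest p in each role, up to 3, a fixed set, and the 3 nearest profiles. C1rb, C1s2, Cd93, Fcna, C9, Serpina1a, Gm20547, Zbtb12 and the genes with no counts were named after their values were seen. A few results that the rule would name are not reported here. Intervals cover the spread between libraries, and a count of 0 allows up to 3 counts (counting error only).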

Additional observations from a re-analysis of the deposited data

How the results depend on the processing

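The number of members past the threshold was 0 in edgeR under every scaling, filter, block and left-out library and in limma-voom, and 1 (C3ar1) in DESeq2, also without control replicate 2, an alternative chosen after seeing the data. The count on the wider complement list was likewise 0 and, in DESeq2, 3 with and without that library. Over all genes edgeR called 1, and 1 to 4 when 1 library was left out, against 390 in DESeq2 and 196 in DESeq2 without control replicate 2. On simulated counts a larger share of the DESeq2 calls was false than of those by edgeR or limma-voom, and DESeq2 also recovered more of the true changes. How far this accounts for the gap in the real counts was not tested.

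Of 117 member fold changes under alternatives, 108 kept direction and side of the threshold, 2 (C3ar1 in DESeq2, -0.96, and -0.89 without control replicate 2) passed, and 7 changed sign. The sign changes were in C3 (-0.36 to 0.27 when 1 library was left out, and 0.09 in DESeq2 without control replicate 2), C4b (-0.06 to 0.24) and C5ar1 (-0.26 to 0.08), all near 0. Of 63 ratios to the macrophage markers, 61 kept direction, and C1qb ran from -0.01 to 0.12 when 1 library was left out. The list median stayed between -0.09 and -0.02.

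Replicate numbers showed no clear pairing of the samples. Deviations of same-numbered samples correlated at 0.136, -0.109 and 0.018, and 3 of 6 samples correlated best with their own number. Each deviation was taken from a mean of only 3 libraries, so this check cannot exclude a pairing. With the replicate block, C3ar1 was -0.95 (adjusted p = 0.237) and edgeR called 1 gene in all, 0 of them members.

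Each member had at least 473 counts in every library, while genes such as Hc, with 4 to 72 counts, are limited by depth.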
